A study of Mus musculus with 2 samples.

Results

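Complement genes that stromal cells can transcribe were examined in cultured mouse FAPs (fibro-adipogenic progenitors), which reside in muscle and can differentiate into fat cells. The 8 genes C3, C4b, C1s1, C1ra, Cfb, Cfd, Serping1 and Cd59a were chosen by symbol from 44291 genes, and each symbol matched 1 entry. The wild-type FAPs received platelet-rich plasma (PRP) or vehicle as control, and there was 1 library per group, so 2 libraries in all. The labels call the treatment PRP, whereas the study's text describes exosomes from the PRP of human donors. Both groups were cultured in adipogenic induction medium with 20% fetal bovine serum, insulin at 10 μg/ml, dexamethasone at 0.25 μM and IBMX at 0.5 mM, and dexamethasone and serum were therefore present in the control as well. The study's methods name C57BL/6 mice and cell sorting from hind limb muscle, but they tie no animal to a library and do not state whether animals were pooled. Without replicates, each difference is one between 2 libraries, has no replicate check and carries no p-value.

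Complement is a cascade of plasma proteases and their substrates that marks and lyses targets. The classical route starts when the recognition protein C1q activates the proteases C1r and C1s, which cut C4 and C2. The alternative route is driven by factor B and factor D, which build the convertase that cuts more C3. Host cells are protected by soluble inhibitors such as the C1 inhibitor and by membrane proteins such as CD59. The liver makes most of the plasma pool, fibroblasts and adipocytes are local sources, and factor D is also known as adipsin because adipocytes secrete it.

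The upstream sequences below show what lies directly before the start sites of the component C3, the most abundant member C1s1 and the member Cd59a, which was higher in PRP where C1s1 was lower. Of the 8 genes, 5 had an entry in the RefSeq promoter table (GRCm38.p6), namely C3, C1s1, C1ra, Cfd and Cd59a. Each sequence is the 250 bases upstream of the RefSeq start, read 5′ to 3′ on the gene's strand, with matches to the motifs named after them in capitals, and positions are counted back from -1, the base before the start.

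C3 upstream (chr17:57228137-57228386, minus strand): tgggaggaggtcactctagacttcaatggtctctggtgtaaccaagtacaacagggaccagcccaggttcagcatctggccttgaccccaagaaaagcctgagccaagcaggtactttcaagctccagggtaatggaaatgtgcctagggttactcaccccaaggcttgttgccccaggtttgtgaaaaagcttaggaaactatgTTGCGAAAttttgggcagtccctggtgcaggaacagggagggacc
C1s1 upstream (chr6:124542360-124542609, minus strand): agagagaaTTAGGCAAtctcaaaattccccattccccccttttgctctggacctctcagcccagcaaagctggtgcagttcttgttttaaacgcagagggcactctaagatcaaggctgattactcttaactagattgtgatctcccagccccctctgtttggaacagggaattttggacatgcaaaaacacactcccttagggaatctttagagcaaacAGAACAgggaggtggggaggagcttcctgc
Cd59a upstream (chr2:104095551-104095800, plus strand): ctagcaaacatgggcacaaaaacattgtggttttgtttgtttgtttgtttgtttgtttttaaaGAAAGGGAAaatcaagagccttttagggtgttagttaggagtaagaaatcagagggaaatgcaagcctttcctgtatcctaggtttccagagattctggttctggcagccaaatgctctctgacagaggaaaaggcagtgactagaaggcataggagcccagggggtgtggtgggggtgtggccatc

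Both strands were searched for 5 motifs. The letters were GGNNTTTCC for NF-kB, GAAANNGAA for the interferon-stimulated response element, TTCNNNGAA for the gamma-activated site, TTGCNNAA for C/EBP and AGAACA for the glucocorticoid receptor half-site. None of the matches in these genes overlapped another. C3 had 1 C/EBP match, TTGCGAAA, at positions -45 to -38. In the window shown, C1s1 had 1 C/EBP match on the opposite strand at positions -242 to -235 and 1 glucocorticoid half-site at -30 to -25. RefSeq lists another start of C1s1, with a window at 124542322 to 124542571. There the same half-site lay at -68 to -63, and the C/EBP match fell outside the window. Cd59a had 1 match to the interferon element, GAAAGGGAA, at positions -187 to -179. These letters are frequent in windows of this length. Of 32851 promoter windows, 4.93% held the NF-kB letters, 7.13% the interferon element, 7.02% the gamma-activated site, 9.56% the C/EBP letters and 16.1% the glucocorticoid half-site. The windows of C1ra and Cfd held none of the 5. Of the 250 bases of the C1ra window, however, 216 lie in annotated exons of C1ra itself. A match describes the letters in the window and does not show a bound site.

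The libraries held 40120843 (PRP) and 34139741 (control) reads assigned to genes, and mitochondrial genes made up 2.06% and 3.70% of the summed FPKM. Values are FPKM as the authors computed them, which scales reads to exon length and to the assigned reads of the library, so that levels of different genes can be set side by side. Whole reads could be worked back for each of the 8 genes, from 70 reads for Cfd to 6153 for C1s1. The intervals given are exact 95% intervals on these reads divided by 2, because the mates of a pair appear to be counted separately. They cover counting error only. The difference is log2(PRP FPKM + 1) minus log2(control FPKM + 1), and a gene counts as apart at 2-fold on that scale. Genes were tested against this limit where their FPKM averaged 1 or more over both libraries.

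The stromal label was checked against marker genes. Of 10 stromal markers, 9 passed this filter, among them Thy1 (156 FPKM in PRP and 212 in the control), Pdgfra (19.8 and 28.0) and Col1a1 (119 and 219), while Lum was near 0 (0.0815 and 0.0718). All 9 had lower levels in PRP, the median of their differences was -0.44, and their summed level over the 10 genes was 571 against 857 FPKM. The leukocyte marker Ptprc and the macrophage marker Adgre1 did not exceed 0.0543 FPKM in either library. Of 13 macrophage markers only Lyz2 and Cd68 passed the filter, and the list summed to 12.0 and 11.7 FPKM. The sums held opposite differences, as Lyz2 had 4.91 FPKM in PRP and 7.57 in the control (ratio 0.648, interval 0.512 to 0.820), and Cd68 had 4.56 and 2.31 (1.98, 1.41 to 2.82). Their part in the complement values was not tested. Of the 8 hepatocyte markers none passed, and Alb, Fgb and Serpina1a were at 0 in both libraries. Of 10 endothelial markers Kdr and Tek passed, whereas the defining markers Pecam1 and Cdh5 were at or below 0.188 FPKM, and Kdr had 4.23 FPKM in PRP against 1.499 in the control. Of 7 myogenic markers in the files, Acta1, Des and Ckm passed, while Pax7 and Myog were at 0 in both libraries. Of 10 adipocyte markers 7 passed, with 4 higher and 3 lower in PRP and sums of 144 and 155 FPKM. In bulk RNA, fewer cells of a type and less RNA per cell cannot be told apart.

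**Figure D1:**
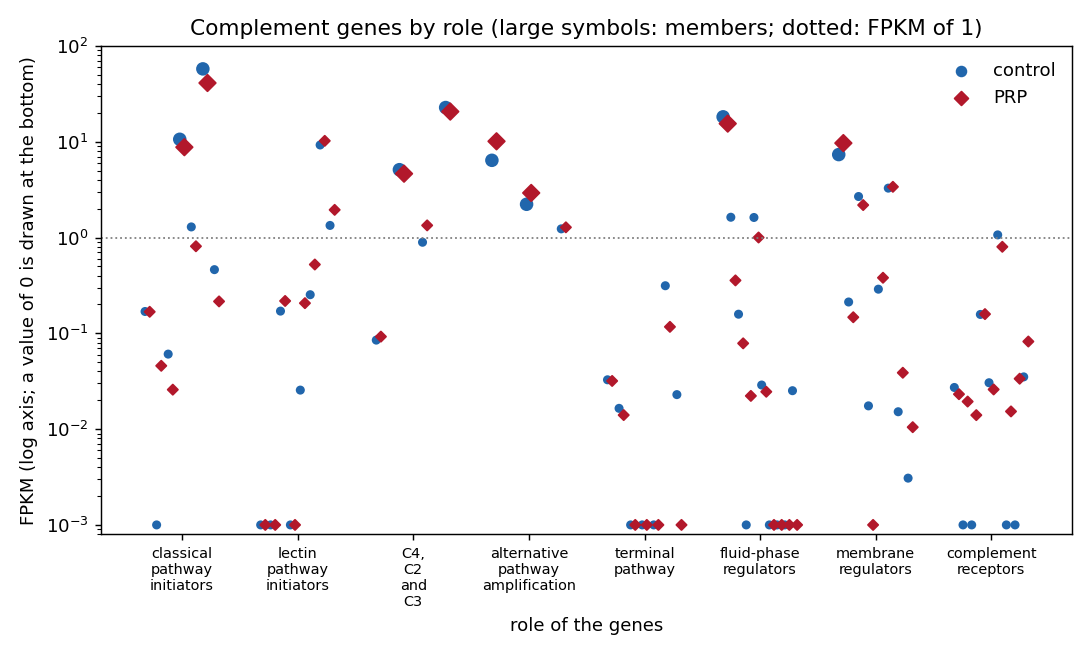
FPKM (log axis) of 56 complement genes grouped by role, in the control (circles) and PRP (diamonds) library; large symbols are the 8 genes described, the dotted line marks 1 FPKM and values of 0 sit at the bottom. The proteases C1s1 and C1ra stand far above C1qa, C1qb and C1qc, and no gene of the terminal pathway reaches 1 FPKM.

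The cascade was covered unevenly in both libraries. To place the 8 genes, 48 other complement genes were listed by role, of which 8 passed the filter, 9 were at 0 in both libraries and 31 lay in between. The 3 chains of C1q were at the level of single reads, with 7 and 6 reads for C1qa, 2 and 0 for C1qb and 2 and 4 for C1qc in the PRP and the control library. None of the 7 terminal pathway genes, which form the membrane attack complex and its precursors, passed the filter. C8g was the highest of them, with 0.117 and 0.314 FPKM. None of the 9 receptor genes passed either, and Itgb2, the shared chain of the integrin complement receptors, was the highest with 0.800 and 1.07 FPKM. The level of Itgb2 in the control rested on 111 reads and was above that of C2 (0.893 FPKM), and the other receptor genes did not exceed 0.159 FPKM.

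The levels of the 8 genes spanned a 14.1-fold range in the PRP library and a 25.9-fold range in the control library. In the control library the order was C1s1, C3, Serping1, C1ra, Cd59a, Cfb, C4b and Cfd. The counting intervals of Cd59a (6.42 to 8.36 FPKM) and Cfb (5.70 to 7.15 FPKM) overlapped, and those of the other neighbours in the order did not. In the PRP library Cfb moved up to the fourth place, and the intervals of Cfb (9.29 to 10.96 FPKM), Cd59a (8.69 to 10.7 FPKM) and C1ra (8.04 to 9.55 FPKM) overlapped one another. C1s1 ranked highest in both, with 1296 of the 13401 tested genes above it in PRP and 932 in the control. Cfd ranked lowest, with 68.5% of tested genes above it in PRP and 76.2% in the control. The 8 genes summed to 113 FPKM in PRP and 130 in the control, which is 0.0330% and 0.0384% of all FPKM.

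**Figure D2:**
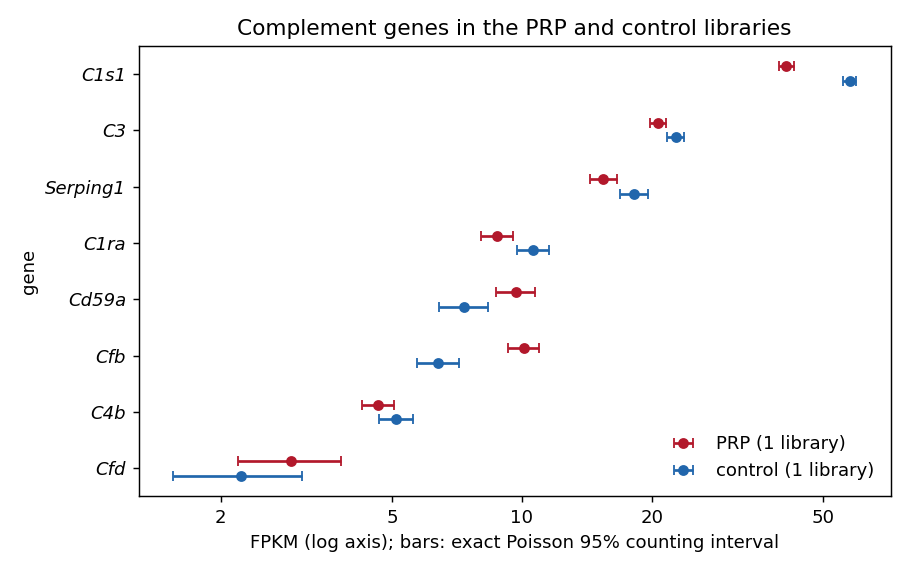
FPKM (log axis) of the 8 complement genes in the PRP (red) and control (blue) library, 1 library each, with exact Poisson 95% counting intervals as bars. The bars of C4b and Cfd overlap between the libraries, and those of the other 6 genes do not.

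The genes for the initiating proteases of the classical pathway, C1r and C1s, were lower in the PRP library. C2, the protease gene of the classical convertase, was higher and is described below. C1s1 (ENSMUSG00000038521, chromosome 6, 124530345 to 124542359, minus strand), which encodes the protease C1s that cuts C4 and C2, had 41.0 FPKM in PRP and 57.6 in the control. Its ratio was 0.713 (interval 0.676 to 0.751) from 5153 and 6153 reads, and its log2 difference of -0.48 was the lowest among the 8, with 7.32% of tested genes lower. C1ra (ENSMUSG00000055172, chromosome 6, 124512405 to 124523443, plus strand) encodes C1r, which activates C1s. It had 8.77 FPKM in PRP and 10.6 in the control, a ratio of 0.827 (0.732 to 0.935) from 1049 and 1079 reads. Within the libraries C1s1 stood at 4.68 times the FPKM of C1ra in PRP and at 5.43 times in the control, so C1s1 was the more reduced of the pair (ratio of ratios 0.861, interval 0.754 to 0.984). This comparison does not depend on how the libraries are scaled.

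The genes for C1r and C1s sit in a tandem cluster of 123681 bases on chromosome 6 with their near-identical copies C1rb and C1s2. The copies were far less abundant, with 0.811 and 1.29 FPKM for C1rb (79 and 107 reads) and 0.215 and 0.462 FPKM for C1s2 (23 and 42 reads) in PRP and the control. The ratio of C1rb was 0.628 (0.406 to 0.966), and that of C1s2 was 0.466 with an interval of 0.206 to 1.001 that included no change. All 4 genes had a ratio below 1, although reads can be shared between copies. Of the 100-base stretches in annotated C1ra transcripts, 35.9% also occur in C1rb or in Gm18840, so the split of C1ra reads is uncertain. For C1s1 6.87% of such stretches occur in C1s2. The antisense gene Gm16567, whose 576 exon bases all lie within C1s1 exons, was listed with 1972 and 2321 reads and a ratio of 0.723. The study's methods name a stranded library kit. The sources used here do not state whether the counting used strand, so reads of C1s1 and Gm16567 cannot be told apart. The cluster held 6 genes in the files, and Gm16567 was the only one besides C1ra, C1s1 and C1rb to pass the filter.

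Serping1 (ENSMUSG00000023224, chromosome 2, 84765387 to 84775444, minus strand) encodes the C1 inhibitor, which inactivates C1r and C1s. It had 15.5 FPKM in PRP and 18.2 in the control, a ratio of 0.850 (0.765 to 0.943). The read numbers were nearly equal, 1442 and 1444, before scaling to the 1.18 times larger total of the PRP library. C1s1 exceeded its inhibitor 2.66-fold in FPKM in PRP and 3.17-fold in the control, a ratio of ratios of 0.839 (0.746 to 0.943). C1ra and Serping1 kept closer proportions, at 0.567 and 0.583, where the interval of 0.828 to 1.14 for the ratio of ratios included no change. None of the 50-base stretches of Serping1 transcripts occurred in another gene.

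Since stromal markers were also lower in PRP, the genes were set beside Pdgfra and Ly6a, which encode the surface proteins CD140a and Sca-1 used to identify FAPs. C1s1 had 2.07 times the FPKM of Pdgfra in PRP and 2.06 times in the control (ratio of ratios 1.004, interval 0.939 to 1.07). Relative to Pdgfra, C1ra was higher in PRP (1.17, interval 1.02 to 1.33), as were Serping1 (1.198, 1.07 to 1.34) and C3 (1.28, 1.19 to 1.38). Against Ly6a, which had 59.9 FPKM in PRP and 66.4 in the control, C1s1 was lower in PRP (0.790, interval 0.721 to 0.866). The intervals of C1ra (0.794 to 1.06), Serping1 (0.828 to 1.07) and C3 (0.913 to 1.11) against Ly6a included no change. The comparison thus depended on the marker, and the ratios of the 9 tested stromal markers ran from 0.501 for Col3a1 to 0.902 for Ly6a. The part of a change in FAP markers in these values was not tested.

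C4 and C3 carry the cascade from the initiating proteases to its effectors. C3 (ENSMUSG00000024164, chromosome 17, 57203970 to 57228136, minus strand), on which all routes converge, had 20.6 FPKM in PRP and 22.7 in the control. Its ratio of 0.908 had an interval of 0.853 to 0.965, below 1 beyond counting error but small, and 31.5% of tested genes had a lower difference. C4b (ENSMUSG00000073418, chromosome 17, 34728380 to 34743882, minus strand), which encodes C4, had 4.64 FPKM in PRP and 5.11 in the control. Its ratio was 0.908 as well, and the interval of 0.802 to 1.03 included no change, or 0.832 to 0.991 when reads were not divided by 2. C4b stood at 0.225 times the FPKM of C3 in both libraries, with a ratio of ratios of 1.001 (0.872 to 1.15). The copy C4a was at 0.0924 and 0.0850 FPKM, and 15.2% of the 100-base stretches of C4b occur in it. For C3 no 50-base stretch was shared with another gene.

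Of the alternative pathway genes, Cfb was higher in the PRP library beyond counting error. Cfb (ENSMUSG00000090231, chromosome 17, 34856374 to 34862518, minus strand) encodes factor B, which supplies the protease of the alternative convertase. It had 10.1 FPKM in PRP and 6.40 in the control, from 1145 and 617 reads. The ratio of 1.58 (1.37 to 1.82) was the highest among the 8 genes, and its log2 difference of 0.59 was exceeded by 6.13% of tested genes. Cfd (ENSMUSG00000061780, chromosome 10, 79890853 to 79892655, plus strand) encodes factor D, which cuts factor B bound to C3b. It had 2.92 FPKM in PRP and 2.22 in the control, but with 108 and 70 reads the interval of its ratio of 1.31 ran from 0.842 to 2.07, so no difference was detectable at this depth. Properdin (Cfp), which stabilises the convertase, had 1.28 and 1.23 FPKM with an interval of 0.655 to 1.65.

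Cfb was also higher in PRP relative to C3 and C1s1 within each library. Cfb stood at 0.489 times the FPKM of C3 in PRP and at 0.281 times in the control, a ratio of ratios of 1.74 (1.49 to 2.03). Against C1s1 the proportion was 0.246 in PRP and 0.111 in the control, a ratio of ratios of 2.22 (1.91 to 2.58). The corresponding value of Cfd against C3 was 1.45 (0.924 to 2.29). Cfd was also set beside adipocyte genes, since it is one of their secreted products. It stood at 0.0718 times the FPKM of the lipid carrier gene Fabp4 in PRP and at 0.0662 times in the control (1.09, interval 0.694 to 1.72). Against the adipokine gene Adipoq the ratio of ratios was 1.25 (0.747 to 2.10). Fabp4 itself had 40.7 and 33.6 FPKM, and Adipoq 5.49 and 5.22.

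**Figure D3:**
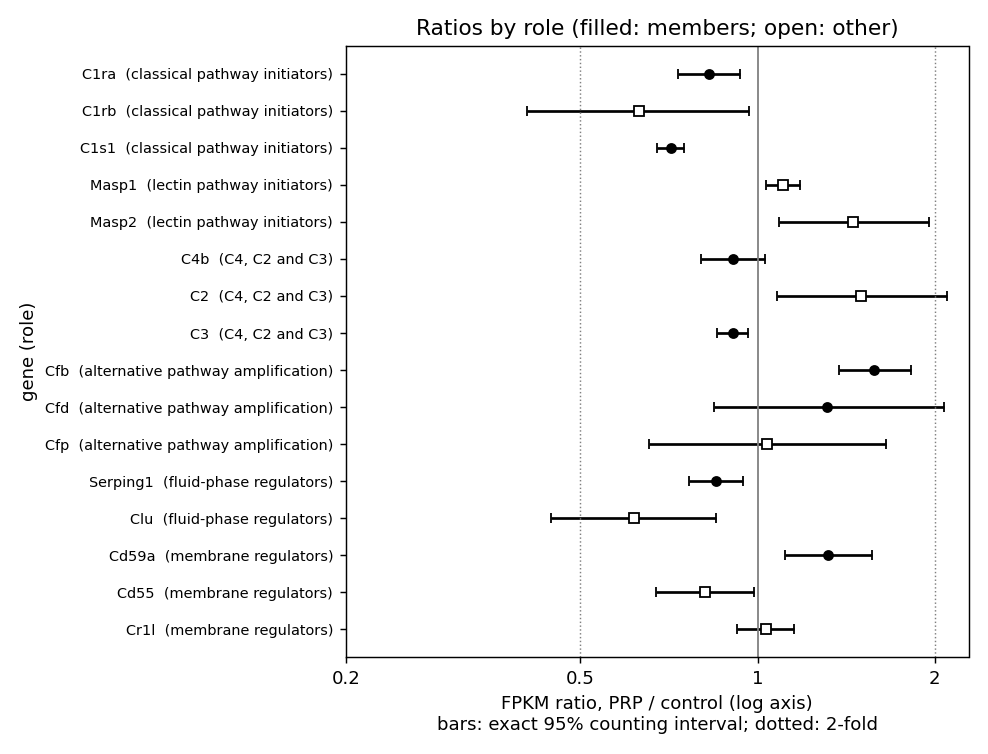
FPKM ratio of PRP to control (log axis) for the 8 genes (filled) and for the 8 other complement genes that passed the filter (open), with their roles and exact 95% counting intervals; the solid line marks no change and the dotted lines 2-fold. Cfb, Cd59a, C2, Masp1 and Masp2 lie above 1 with their whole interval, and C1s1, C1ra, Serping1, C3, C1rb, Clu and Cd55 below it.

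Cfb lies 85 bases from C2, which encodes the matching protease of the classical convertase. C2 had 1.34 FPKM in PRP and 0.893 in the control, a ratio of 1.5 (1.08 to 2.10). The proportion of Cfb to C2 was 7.54 and 7.17, and its ratio of ratios of 1.05 had an interval of 0.730 to 1.51. Another entry, Gm20547, is annotated on the same strand across both genes, and all of its 3902 exon bases lie in exons of Cfb or C2, covering 79.5% of the exon length of Cfb. It was listed with 1239 and 683 reads, against 1353 and 735 for Cfb and C2 together. How reads on shared exons were assigned is not stated, so the level of Cfb is uncertain, while all 3 entries had ratios between 1.5 and 1.58. The stretch of chromosome 17 from C4b to C2, in the class III region of the major histocompatibility complex, held 6 other tested genes besides the complement genes and Gm20547. Of these 4 were higher and 2 lower in PRP, with a median difference of 0.01. Stk19 (ratio 1.06), Dxo (1.03), Skic2 (0.924) and Zbtb12 (1.003) had intervals that included no change, as did Mir6972, and Nelfe was lower (0.786, interval 0.715 to 0.863).

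Cd59a (ENSMUSG00000032679, chromosome 2, 104095801 to 104115354, plus strand) encodes the membrane protein CD59, which blocks the assembly of the pore. It had 9.68 FPKM in PRP and 7.34 in the control, a ratio of 1.32 (1.11 to 1.56) from 703 and 454 reads. Relative to C3 the proportion was 0.469 in PRP and 0.323 in the control (1.45, interval 1.21 to 1.74). The neighbouring copy Cd59b, whose annotated exons gave no whole reads, was at 0.147 and 0.212 FPKM, and it shares 0.276% of the 100-base stretches of Cd59a. The protector Cd55, which speeds the decay of convertases, moved the other way, with 2.18 and 2.68 FPKM (ratio 0.815, interval 0.672 to 0.988). Cr1l, the rodent convertase regulator Crry, had 3.38 and 3.28 FPKM, with an interval of 0.924 to 1.15.

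Among the 8 genes, 3 had higher and 5 lower levels in PRP, and the median log2 difference was -0.12 beside 0.01 over all 13401 tested genes. The mean of the 8 was 0.0033, so median and mean did not share a direction. None of the 8 reached 2-fold, a size that 2.83% of all tested genes reached. At 1.5-fold, which 10.7% of all genes reached, 1 gene, Cfb, was past the limit in the higher direction, with a fold of 1.501 on the scale with the pseudocount, beside 6.15% of all genes. None was past it in the lower direction, beside 4.57%. The counting interval excluded no change for 6 of the 8, beside 52.2% of the 12367 tested genes with whole reads. It did so for 2 genes in the higher direction, beside 26.2%, and for 4 in the lower direction, beside 26.1%. With so many genes beyond counting error between these libraries, that count is no result about complement.

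**Figure D4:**
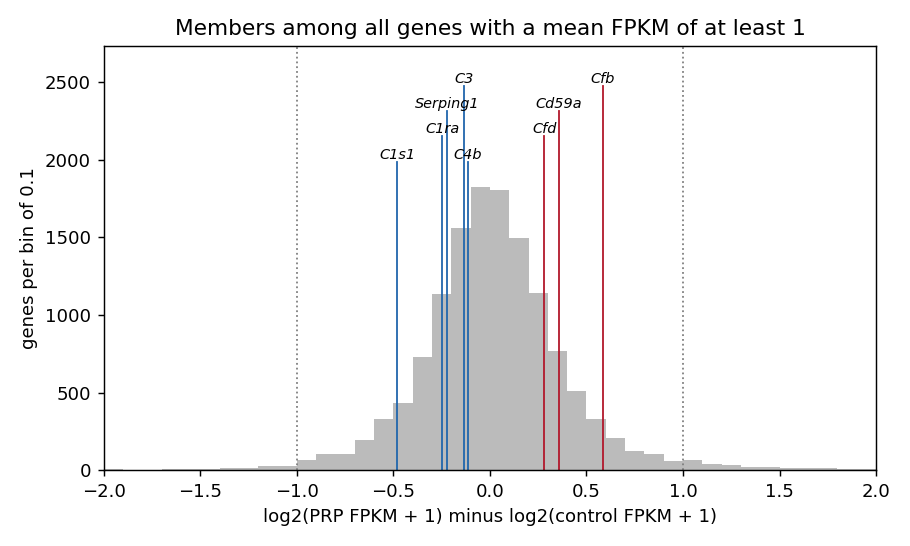
Number of tested genes (bars, bins of 0.1) by log2(PRP FPKM + 1) minus log2(control FPKM + 1), drawn from -2 to 2, with the 8 complement genes as lines (red higher, blue lower in PRP) and dotted lines at 2-fold. All 8 lie inside the dotted lines, Cfb at 0.59 and C1s1 at -0.48 being the outermost.

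Of the 8 tested genes among the other complement genes, 5 were higher and 3 lower in PRP, with a median difference of 0.03 and none at 2-fold. The intervals of C2, Masp1 and Masp2 lay above 1 and those of C1rb, Clu and Cd55 below it. Masp1, a lectin pathway protease gene, had 10.2 and 9.25 FPKM (ratio 1.10, interval 1.03 to 1.18). Masp2 had 1.94 and 1.34 FPKM (1.45, 1.09 to 1.96), but 54.9% of its exon length overlaps Tardbp on the opposite strand, which had 43.9 and 36.0 FPKM. The reads were 258 and 151 for Masp2, against 13717 and 9582 for Tardbp. The part of Tardbp reads in the Masp2 values was not tested. Clu, which encodes the soluble regulator clusterin, had 1.001 and 1.62 FPKM (0.618, 0.447 to 0.852).

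Below the filter, Colec10, a soluble lectin gene, was singled out after its values were seen. It had 38 reads in PRP and 4 in the control (ratio 8.08, interval 1.95 to 71.6).

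With 2 libraries, likeness of pattern can be measured only as the distance between 2 pairs of levels on the log2(FPKM + 1) scale. The tested gene nearest to C1s1 was the matrix gene Efemp1 (40.0 and 58.8 FPKM, distance 0.0468). Peak1 was nearest to C3, Slc35a1 to Serping1, P3h4 to C1ra, Sidt2 to C4b, Gm16000 to Cfb, Zfp57 to Cfd and Adssl1 to Cd59a, each at a distance of at most 0.0175. With 13401 genes and 2 values each, such neighbours are common.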

How the data were processed

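RNA-seq was performed on 2 libraries, 1 per group. The study's methods name a stranded mRNA library kit. Per the labels and the study's methods, the authors trimmed reads with fastp 0.23.4, aligned them to mm10 with STAR 2.5.3a, counted them with featureCounts and deposited FPKM values per gene. The annotation release and the FPKM formula are not given in the sources used here. With GENCODE M21 exon lengths (GRCm38), 26398 of 28152 genes above 0 (93.8%) gave whole reads in both libraries within 0.001 reads, which gave the depth. Even numbers made up 79.3% and 80.3% of genes with up to 8 reads, so intervals used reads divided by 2.

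Ratio intervals were exact Clopper-Pearson 95% intervals, and ratios of ratios had exact conditional intervals of the odds ratio. They compare libraries and take no account of PCR duplicates. No count test was run. All 8 members and each other complement gene averaging 1 FPKM or more were named, with the near-identical copies of members, the nearest gene to each member and the leading markers. Members and lists were chosen with earlier results of these data known. The ratios within libraries and the shared stretches were added after the data were seen. Procedures were tested on simulated data. Some results are not reported here. Python 3.11.15, NumPy 2.4.6, pandas 2.3.3, SciPy 1.17.1 and matplotlib 3.10.9 were used.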

Additional observations from a re-analysis of the deposited data

How the results depend on the processing

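Alternatives that could reverse a direction were setting the FPKM sums equal, centring at the median and rescaling without mitochondrial and the 50 most abundant genes. Under each of these the direction of all 8 genes was kept. A pseudocount of 0.1 or 5 was also tried, as was dropping the filter or raising it to 5 FPKM. These settings cannot change the direction of a gene, so they do not bear on it. The filter at 5 left out C4b and Cfd. The log2 difference of Cfb ranged from 0.41 to 0.65 and that of C1s1 from -0.51 to -0.44. The members' median was -0.12 and their mean 0.0033. At a 1.5-fold limit 1 member, Cfb, was apart. Over all genes, 379 were at least 2-fold apart, against 739 and 113 with pseudocounts of 0.1 and 5, 210 with the filter raised to 5 FPKM, 596 with equal FPKM sums, and 1436 and 26 at limits of 1.5 and 4. The count of 596 is not the effect of equal sums alone. The sums were 343024 FPKM in PRP and 339238 in the control, so equal sums alone would slightly lower PRP relative to the control. Under that setting the log2 difference nevertheless rose from 0.59 to 0.62 for Cfb and from 0.28 to 0.33 for Cfd. The setting thus also reduced the weight of the pseudocount. The cause of the changed counts was not tested beyond the changed limit or filter. No paired analysis was possible because PRP and control are single libraries. No library could be left out for the same reason, and the depth limits Cfd most.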
